A study of Mus musculus with 12 samples.

Results

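Adora1, Thpo, Pdgfrl, Rnase1 and Zfp703 are 5 of the 55421 mouse genes counted in RNA from small intestine, selected on their measured levels: low in libraries with Eif3h and Apc deleted, against libraries with Apc deleted alone. That contrast therefore describes them and is given with no test. All 5 passed the filter on low counts, as did 17394 genes in all. The name "most lowered" held for 4 of them. Adora1 had the 43rd lowest log2 fold change of the 17394 genes (-2.20), Thpo the 64th (-1.90), Pdgfrl the 75th (-1.82) and Rnase1 the 118th (-1.54), whereas Zfp703 was the 1790th (-0.43). The choice set no numeric limit on the fold change. Rnase1 was 14th of 351 genes called lower and expressed whose libraries did not overlap. The nearest genes to it outside the list were Hpd at -1.55, just below, and Stra6l at -1.44, just above. Other genes outside the list were lower still, such as Reg3b at -3.98 and Cfi at -2.24. Zfp703 was 262nd in that ranking, and Pdgfrl was too low in expression to enter it. Predicted gene models and immunoglobulin and T cell receptor genes were left out of that ranking.

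Libraries of bulk RNA came in 3 groups of 4. The Apc Eif3h group carried VilCreER, a Cre recombinase driven by the villin promoter and switched on by tamoxifen, with floxed alleles of both Apc and Eif3h (VilCreER Apc fl/fl Eif3h fl/fl, day 4, 4 males). The Apc group carried the same Cre with floxed Apc alone (VilCreER Apcfl/fl, day 4, 3 males and 1 female), so both mutant groups share the Apc deletion. The wild type (WT) group is labelled day 7 and held 3 males and 1 female. Induction was by 2 intraperitoneal injections of tamoxifen at 80 mg/kg, 24 hours apart. The treatment text gives harvest after 7 days for every group, against the day 4 of the mutant labels, so day and genotype cannot be told apart in comparisons with WT. Villin is made in gut epithelium, so stromal, immune and nerve cells of the tissue keep both genes. No label gives ages or says that every replicate is a separate animal. Libraries of different sex in Apc and in WT must come from different animals, and for the others this is open. The p-values therefore describe only how far these libraries spread, which may be technical in part.

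The 5 genes act at different places in signalling between cells and in gene control. Adora1 encodes the A1 adenosine receptor, which couples to inhibitory G proteins and lowers cyclic AMP. Pdgfrl encodes a secreted protein that resembles the ligand-binding part of a platelet-derived growth factor receptor. Thpo encodes thrombopoietin, the hormone that drives platelet production and is made mainly in liver. Rnase1 encodes the pancreatic-type secreted ribonuclease, and Zfp703 encodes a nuclear zinc finger corepressor of the NET family. The Apc protein holds together the machinery that destroys beta-catenin and so restrains Wnt signalling. The Eif3h protein is a subunit of eIF3, an initiation factor that helps ribosomes to engage mRNA.

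Library totals lay between 10483112 and 21298301 counts. Eif3h was at 28.3, 43.1, 54.6 and 25.9 CPM (counts scaled to library size, with TMM factors) in Apc Eif3h replicates 1 to 4, against 158 to 175 CPM in Apc and 126 to 142 CPM in WT, so every library labelled Apc Eif3h was below all others (log2 fold change against Apc -2.13, SE 0.19, edgeR adjusted p = 0.000405). Apc Eif3h replicate 2 stood apart through B cell transcripts: Ighm was at 462 CPM there, and its mean in Apc was 10.9 CPM. It was the lowest Apc Eif3h library for 4 of the 5 genes, so values without it are given beside the results. Replicate 3, with the highest Eif3h of its group, was also the highest of its group for Adora1, Pdgfrl and Rnase1. Thpo and Zfp703 were highest in replicate 1, where Eif3h was at 28.3 CPM. Replicate 2, the lowest for 4 of the 5 genes, had the next highest Eif3h after replicate 3 (43.1 CPM). A relation of the 5 genes to the remaining Eif3h was not tested.

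RefSeq promoter sequence (GRCm38.p6) was at hand for 3 of the 5 genes, Adora1, Thpo and Rnase1, at 5 start sites in all. For each gene the 250 bases before the start nearest to the annotated gene start are shown because these genes were high in the same 4 libraries; each is written 5′ to 3′ on the minus strand, and capitals mark matches to the motif letters searched. The windows are chr1:134235458-134235707 for Adora1, chr16:20734512-20734761 for Thpo and chr14:51146768-51147017 for Rnase1.
Adora1: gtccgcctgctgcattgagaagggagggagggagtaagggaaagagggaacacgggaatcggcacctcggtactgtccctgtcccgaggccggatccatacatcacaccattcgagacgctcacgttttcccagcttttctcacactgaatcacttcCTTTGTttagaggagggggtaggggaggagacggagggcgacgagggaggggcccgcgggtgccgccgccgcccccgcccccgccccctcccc
Thpo: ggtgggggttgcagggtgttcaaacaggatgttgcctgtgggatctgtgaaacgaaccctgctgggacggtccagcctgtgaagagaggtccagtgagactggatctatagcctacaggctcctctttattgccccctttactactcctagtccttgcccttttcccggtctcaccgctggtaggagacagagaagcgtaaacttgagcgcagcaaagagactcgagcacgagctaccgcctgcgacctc
Rnase1: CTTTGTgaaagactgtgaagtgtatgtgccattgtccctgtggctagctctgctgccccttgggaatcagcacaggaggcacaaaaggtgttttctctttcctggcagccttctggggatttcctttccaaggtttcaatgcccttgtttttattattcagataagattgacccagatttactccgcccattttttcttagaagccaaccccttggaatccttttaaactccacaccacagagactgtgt
The windows held 64.4% G and C for Adora1, 56.0% for Thpo and 45.6% for Rnase1, against a median of 52.4% over the 32851 promoters of the table. The core of the TCF/LEF motif, through which Wnt signalling acts on genes, was searched on both strands as CTTTGA, which is in 13.8% of all promoter windows, and was in none of the 3. The E-box CACGTG, bound by Myc and its relatives, is in 6.02% of all windows and was likewise in none. A second TCF/LEF core, CTTTGT, added after the sequences had been seen and present in 16.5% of all windows, began 93 bases before the Adora1 start and 250 bases before the Rnase1 start, and the Thpo window had no match. The second windows of Adora1 (chr1:134234857-134235106) and Thpo (chr16:20730599-20730848), not shown, held none of the 3 motifs.

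All 5 genes were at their highest in Apc. Every Apc Eif3h library was below every Apc library for each of them, as the choice favours; over all genes tested 7.26% had Apc Eif3h libraries all below the Apc libraries, and 2.78% passed the test as lower and 4.27% as higher (edgeR quasi-likelihood, Benjamini-Hochberg adjusted p below 0.05). All 5 rose in Apc against WT, in a comparison that shares the Apc libraries with the choice and so is favoured by it; 27.7% of all genes rose and 24.1% fell there, and 26.7% had Apc libraries all above the WT libraries, as these 5 did. The call for Rnase1 was close to the threshold (adjusted p = 0.0483). Against WT, Pdgfrl rose in Apc Eif3h and Rnase1 fell, each with overlapping libraries, and Adora1, Thpo and Zfp703 did not pass the test. That comparison shares the Apc Eif3h libraries with the choice, which favours low values in it, and 29.8% of all genes rose and 28.1% fell. In bulk RNA, fewer cells of a type and less RNA per cell cannot be told apart.

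**Figure D1:**
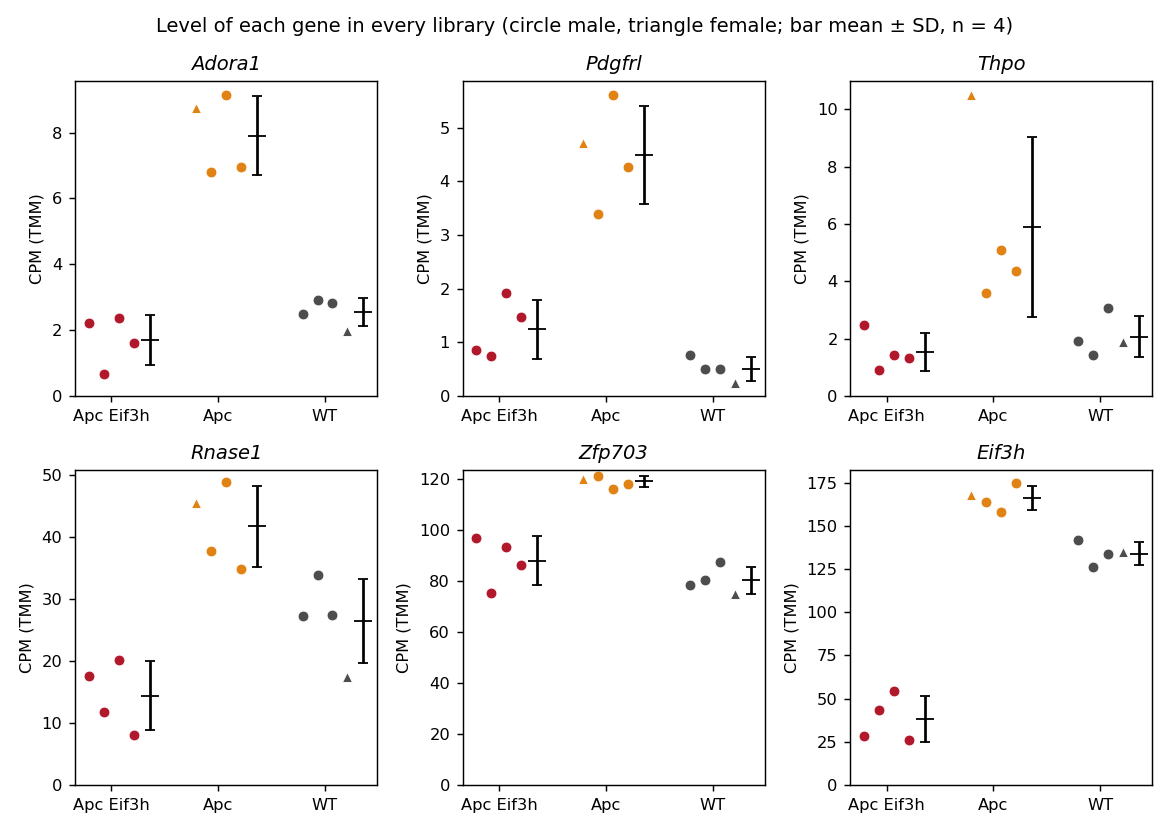
Level of each of the 5 genes, and of Eif3h, in CPM after TMM scaling (y axes from 0) in the Apc Eif3h, Apc and WT libraries. Points are libraries (circles male, triangles female), bars the mean ± SD of 4; the 4 Apc libraries lie above all others for each of the 5 genes.

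Per kilobase of merged exon, the 5 genes fell into a high and a low class. Apc Eif3h libraries averaged 25.9 ± 2.80 CPM per kb for Zfp703 and 14.5 ± 5.57 for Rnase1, against 0.587 ± 0.25 for Thpo, 0.401 ± 0.176 for Pdgfrl and 0.296 ± 0.131 for Adora1 (SD, n = 4). In Apc the level of Rnase1 was 42.1 ± 6.54 CPM per kb and that of Zfp703 35.0 ± 0.662, and in WT they were at 26.7 ± 6.81 and 23.7 ± 1.56. The mean ± SD ranges of these 2 genes overlapped in Apc and WT and did not in Apc Eif3h, and those of neighbours in the order Thpo, Pdgfrl, Adora1 overlapped in Apc Eif3h. In Apc these 3 were at 2.24 ± 1.19, 1.44 ± 0.294 and 1.37 ± 0.208 CPM per kb, again with overlapping ranges, and that of Thpo was wide enough to hold both others.

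Adora1, the receptor, had the lowest log2 fold change of the 5 genes in the contrast of the choice. It lies on chromosome 1 (GRCm38, 134199223 to 134235431, minus strand; ENSMUSG00000042429). It was at 2.21, 0.681, 2.36 and 1.61 CPM in Apc Eif3h replicates 1 to 4, at 8.73, 6.79, 9.14 and 6.95 CPM in Apc, and at 2.48, 2.92, 2.83 and 1.98 CPM in WT. Counts behind these levels were 11 to 38 per Apc Eif3h library, 98 to 168 in Apc and 24 to 41 in WT. The 4 Apc libraries stood together, and Apc Eif3h replicate 2 was below every other library. Apc Eif3h averaged 1.71 ± 0.761 CPM and Apc 7.9 ± 1.2 CPM (SD, n = 4), a difference of -2.20 on the log2 scale, and -1.95 without Apc Eif3h replicate 2. Apc was 3.07-fold higher than WT (log2 fold change 1.62, SE 0.26, edgeR adjusted p = 0.000354). Relative to the WT mean, Apc Eif3h was at 0.671 ± 0.298 and Apc at 3.10 ± 0.471. Apc Eif3h differed from WT by -0.58 (adjusted p = 0.113), with an interval of 2 SE to either side of -1.18 to 0.02, and by -0.33 without Apc Eif3h replicate 2 (adjusted p = 0.219; 0.0627 to 0.281 over 16 alternatives).

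Neither of the other adenosine receptors tested passed in Apc Eif3h against Apc or in Apc against WT. Adora2b, a receptor that raises cyclic AMP, averaged 25.5 CPM in Apc Eif3h, 25.6 in Apc and 20.0 in WT, with log2 differences of -0.01 between Apc Eif3h and Apc (adjusted p = 0.987) and 0.36 between Apc and WT (adjusted p = 0.169). Adora2a was at 2.57, 2.22 and 3.38 CPM in Apc Eif3h, Apc and WT (adjusted p = 0.715 and 0.113 in the same comparisons), and Adora3 did not pass the count filter. Of 8 enzymes that make extracellular adenosine or its precursors, 3 fell in Apc Eif3h against Apc: Entpd1 (-0.64, SE 0.16, adjusted p = 0.0336), Entpd3 (-0.82, SE 0.22, adjusted p = 0.0436) and Enpp1 (-0.45, SE 0.12, adjusted p = 0.0404). Over all genes 2.78% fell in that comparison. Without Apc Eif3h replicate 2 the count was 1 of 8, Entpd1. Nt5e, the ecto-nucleotidase that forms adenosine from AMP, averaged 15.8 CPM in Apc Eif3h and 13.5 in Apc. It fell in Apc against WT, with 61.1 CPM in WT (-2.16, SE 0.47, adjusted p = 0.00237). Of the 8 enzymes 6 fell in Apc against WT and 1, Enpp1, rose (0.67, SE 0.12, adjusted p = 0.000715). Over all genes 24.1% fell and 27.7% rose there. Of 4 enzymes that remove or bind adenosine and its products, none passed the test in Apc Eif3h against Apc, and Ada (adenosine deaminase) fell in Apc against WT (-2.04, SE 0.34, adjusted p = 0.000406), as did Pnp (-0.89, adjusted p = 0.0014). Among 6 nucleoside transporters the concentrative carrier Slc28a1 rose in Apc Eif3h (41.9 CPM, against 19.4 in Apc; log2 fold change 1.11, SE 0.31, adjusted p = 0.0493), a call lost without Apc Eif3h replicate 2. None of 5 inhibitory G protein alpha subunits passed there. The medians of these lists in Apc Eif3h against Apc were 0.10 (the 2 other receptors), -0.30, 0.02, 0.01 and -0.14, beside -0.00185 for all genes.

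Adora1 shares 1162 bases of exon with Mybph on the opposite strand. Mybph had 0 counts in Apc Eif3h, 1 in Apc and 0 in WT. The strand setting of the counting is not given, so reads in the shared bases cannot be told apart. The next coding gene at lower coordinates, Chil1, had summed counts of 57 in Apc Eif3h, 20 in Apc and 189 in WT, and at higher coordinates Myog had 0, 1 and 0. Of these 3 neighbours none had more than 1 count in Apc above its other groups.

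Pdgfrl, the receptor-like secreted protein, stayed above WT in Apc Eif3h. It lies on chromosome 8 (40926212 to 40990785, plus strand; ENSMUSG00000031595). It was at 0.869, 0.742, 1.92 and 1.47 CPM in Apc Eif3h replicates 1 to 4, at 4.72, 3.40, 5.60 and 4.26 CPM in Apc, and at 0.775, 0.498, 0.499 and 0.247 CPM in WT. Counts were 12 to 33 per library in Apc Eif3h, 53 to 103 in Apc and 3 to 10 in WT. Only Apc Eif3h replicate 2 fell within the WT range. Apc Eif3h averaged 1.25 ± 0.550 CPM and Apc 4.49 ± 0.920 (SD, n = 4), -1.82 on the log2 scale and -1.64 without Apc Eif3h replicate 2. Apc was 8.70-fold above WT (3.12, SE 0.35, adjusted p = 3.31e-05). Relative to the WT mean, Apc Eif3h was at 2.48 ± 1.09 and Apc at 8.90 ± 1.82. Apc Eif3h exceeded WT by 1.31 (SE 0.40, adjusted p = 0.0149), or by 1.48 without Apc Eif3h replicate 2, a call lost among libraries labelled male (1.09, adjusted p = 0.061; 0.0064 to 0.061 over 16 alternatives).

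None of the 6 other tested members of the platelet-derived growth factor family passed the test in Apc Eif3h against Apc. Over all genes 2.78% fell and 4.27% rose there, so the lack of calls does not set Pdgfrl apart. All 6 were below 0, with a median of -0.25. The receptor Pdgfra, a marker of fibroblasts and related stromal cells, averaged 52.6 CPM in Apc Eif3h, 74.7 in Apc and 78.0 in WT (-0.51 for Apc Eif3h against Apc, adjusted p = 0.0844) and fell against WT (-0.57, SE 0.17, adjusted p = 0.0105). Pdgfrb fell against WT too (-0.62, SE 0.15, adjusted p = 0.003), as did the ligand Pdgfd (-1.14, SE 0.28, adjusted p = 0.00448). In Apc against WT, Pdgfd fell (-0.92, adjusted p = 0.0148) and the ligand Pdgfc rose (0.48, SE 0.17, adjusted p = 0.0286). Summed over 8 fibroblast markers, libraries held 567 to 756 CPM in Apc Eif3h, 766 to 1280 CPM in Apc and 902 to 1850 CPM in WT, with none of the 8 passing the test in Apc Eif3h against Apc (median -0.54), 3 lower in Apc against WT and 7 lower in Apc Eif3h against WT. Over all genes 24.1% were lower in Apc against WT and 28.1% in Apc Eif3h against WT. The mean sum was 649 CPM in Apc Eif3h, 977 CPM in Apc and 1270 CPM in WT, where Pdgfrl was lowest, and the part of these markers in the lower level in Apc Eif3h was not tested. Pdgfrl shares no exon with another gene; Mtus1, on the other strand and with its 3′ end 128 bases away, averaged 157 CPM in Apc Eif3h, 150 in Apc and 136 in WT (0.07 for Apc Eif3h against Apc, adjusted p = 0.681).

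Thpo, the secreted hormone, was higher in Apc than in either other group. It lies on chromosome 16 (20724454 to 20734511, minus strand; ENSMUSG00000022847). It was at 2.47, 0.928, 1.43 and 1.34 CPM in Apc Eif3h replicates 1 to 4, at 10.5, 3.61, 5.11 and 4.36 CPM in Apc, and at 1.94, 1.42, 3.08 and 1.89 CPM in WT. Counts were 15 to 37 per library in Apc Eif3h, 69 to 118 in Apc and 20 to 37 in WT. Apc replicate 1, the female of its group and its shallowest library, was far above the other 3. Apc Eif3h averaged 1.54 ± 0.658 CPM and Apc 5.90 ± 3.14 (SD, n = 4), -1.90 on the log2 scale, -1.51 without Apc replicate 1 and -1.73 without Apc Eif3h replicate 2. Apc was 2.76-fold above WT (1.47, SE 0.38, adjusted p = 0.00618), and without Apc replicate 1 the log2 fold change was 1.07 (adjusted p = 0.0137; 0.000821 to 0.0359 over 16 alternatives). Apc Eif3h differed from WT by -0.44 (adjusted p = 0.396), with 2 SE to either side spanning -1.30 to 0.42, or by -0.27 without Apc Eif3h replicate 2 (adjusted p = 0.622; 0.195 to 0.742 over 16 alternatives). It stood at 0.740 ± 0.316 of the WT mean.

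Of 11 other tested genes of thrombopoietin signalling, none passed the test in Apc Eif3h against Apc, with a median of 0.03. Over all genes 2.78% fell and 4.27% rose there. In Apc against WT the kinase Jak2 fell (-0.64, SE 0.11, adjusted p = 0.000463), as did Stat3 (-0.30, SE 0.11, adjusted p = 0.032), and the phosphatase Ptpn11 rose (0.34, SE 0.09, adjusted p = 0.00762). Of 8 other tested growth factors for blood cells, none passed the test in Apc Eif3h against Apc. Il11 rose in Apc against WT (2.19, SE 0.52, adjusted p = 0.00379), and Flt3l (-0.92, adjusted p = 0.0236), Csf2 (-1.15, adjusted p = 0.0033) and Cxcl12 (-1.04, adjusted p = 0.00786) fell. Among markers of megakaryocytes and platelets, Ppbp had 5 counts and Gp9 had 11 over all libraries, and the 6 markers summed to 6.61 to 8.89 CPM in Apc Eif3h, 6.31 to 8.68 CPM in Apc and 8.90 to 12.4 CPM in WT.

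Thpo overlaps Chrd, a secreted antagonist of bone morphogenetic proteins on the opposite strand, over 239 exonic bases. Chrd averaged 1.36 ± 0.223 CPM in Apc Eif3h, 2.61 ± 0.475 in Apc and 2.53 ± 0.413 in WT (SD, n = 4). It fell in Apc Eif3h against Apc (-0.93, SE 0.20, adjusted p = 0.0185) and was at 0.03 in Apc against WT (adjusted p = 0.905). No source used here gives the strand setting of the counting, so reads in the shared bases cannot be told apart. The next coding gene at lower coordinates, Polr2h, averaged 38.7 CPM in Apc Eif3h, 34.8 in Apc and 17.9 in WT.

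Rnase1, the secreted enzyme, was the only one of the 5 that fell in Apc Eif3h against WT. It lies on chromosome 14 (51144998 to 51146785, minus strand; ENSMUSG00000035896). It was at 17.6, 11.8, 20.2 and 8.04 CPM in Apc Eif3h replicates 1 to 4, at 45.4, 37.8, 48.8 and 34.9 CPM in Apc, and at 27.3, 33.8, 27.4 and 17.4 CPM in WT. Counts were 180 to 326 per library in Apc Eif3h, 510 to 898 in Apc and 211 to 474 in WT. Apc libraries were above all others, and WT replicate 4 lay within the Apc Eif3h range. Apc Eif3h averaged 14.4 ± 5.52 CPM and Apc 41.7 ± 6.49 (SD, n = 4), -1.54 on the log2 scale and -1.46 without Apc Eif3h replicate 2. Against WT, Apc Eif3h was lower, at -0.88 on the log2 scale (SE 0.26, adjusted p = 0.0121), or -0.80 without Apc Eif3h replicate 2, and stood at 0.545 ± 0.209 of the WT mean. Apc exceeded WT by 0.66 (edgeR adjusted p = 0.0483, SE 0.26), a call that was lost without any 1 of 7 of the 8 libraries compared (adjusted p = 0.0509 to 0.132) and among males alone (0.46, adjusted p = 0.222). Among these 8 it passed only without WT replicate 2 (adjusted p = 0.0349).

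Rnase4 and Ang, which are secreted ribonucleases of the same family and lie 38846 and 42988 bases from Rnase1, followed the same direction. Rnase4 averaged 69.6 CPM in Apc Eif3h, 153 in Apc and 122 in WT, and fell in Apc Eif3h against Apc (-1.14, SE 0.15, adjusted p = 0.00203) and against WT (-0.81, SE 0.14, adjusted p = 0.000509). Ang (angiogenin) averaged 15.6, 29.6 and 23.1 CPM in the 3 groups and fell in the same comparisons (-0.93, SE 0.18, adjusted p = 0.0107, and -0.57, SE 0.18, adjusted p = 0.0151). They were 2 of 6 tested members of the family and its inhibitor, Rnase1 left aside, that fell in Apc Eif3h against Apc, also without Apc Eif3h replicate 2. None of the 6 rose and their median was -0.55, while 2.78% of all genes fell. Rnase4 and Ang overlap each other, so their counts are not separate measurements where exons are shared. In Apc against WT, Rnase4 was at 0.33 (adjusted p = 0.0697) and Ang at 0.35 (adjusted p = 0.109).

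**Figure D2:**
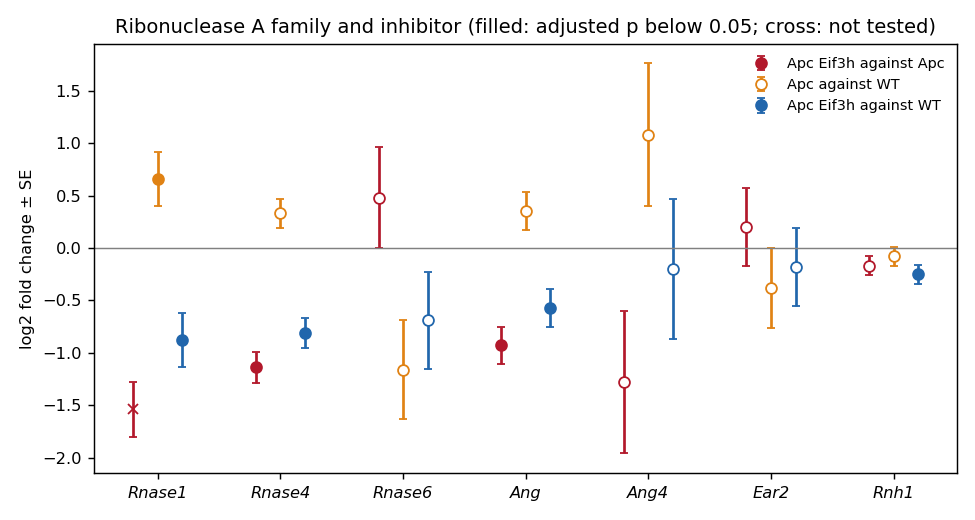
Log2 fold change ± SE of the 7 tested genes of the ribonuclease A family and inhibitor list in Apc Eif3h against Apc, Apc against WT and Apc Eif3h against WT. Filled points have an adjusted p below 0.05 and the cross marks the contrast in which Rnase1 was chosen, shown with no test; Rnase4 and Ang were lower in Apc Eif3h than in either other group.

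The other family members did not pass in Apc Eif3h against Apc. Rnase6, a ribonuclease of immune cells that lies 12810 bases from Rnase1, averaged 5.25 CPM in Apc Eif3h, 3.76 in Apc and 8.42 in WT (0.48, adjusted p = 0.594). Ang4, an antimicrobial member made by Paneth cells in mouse, averaged 110 CPM in Apc Eif3h, 267 in Apc and 127 in WT (-1.28, SE 0.68, adjusted p = 0.279). Rnh1, the cytosolic inhibitor of these enzymes, averaged 132, 148 and 157 CPM and fell against WT (-0.25, SE 0.09, adjusted p = 0.0336). The remaining 13 genes of the list did not pass the count filter.

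Levels of Rnase1 were set beside markers of cells that could carry it. Of 13 pancreatic acinar markers, Prss1, Try4 and Amy2a5 had 0 counts in all 12 libraries, Prss2 had 3 and Cpa1 6. Only Cela1 passed the filter, and the 13 summed to 8.89 to 12.2 CPM in Apc Eif3h, 8.92 to 14.6 CPM in Apc and 10.5 to 12.2 CPM in WT. Paneth cell markers, 8 genes all tested, summed to 6650, 1670, 2670 and 1230 CPM in Apc Eif3h replicates 1 to 4, to 5370, 7440, 8940 and 4250 CPM in Apc and to 3690, 6850, 5150 and 1090 CPM in WT. None of the 8 was called in Apc Eif3h against Apc (median -1.12), where 2.78% of all genes fell and 4.27% rose. Replicate 4 was the lowest library of its group in all 3 groups for Rnase1 and for these markers alike. Both were highest in replicate 3 in Apc and in replicate 2 in WT. In Apc Eif3h the markers were highest in replicate 1 (Rnase1 at 17.6 CPM) and Rnase1 was highest in replicate 3 (20.2 CPM). The part of these markers in the level of Rnase1 was not tested.

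Zfp703, the nuclear corepressor, had the smallest fold changes of the 5 and the least spread. It lies on chromosome 8 (26977325 to 26981461, plus strand; ENSMUSG00000085795). It was at 96.9, 75.4, 93.3 and 86.1 CPM in Apc Eif3h replicates 1 to 4, at 120, 121, 116 and 118 CPM in Apc, and at 78.3, 80.5, 87.4 and 74.9 CPM in WT. Counts were 909 to 2315 per library over all groups. The 4 Apc libraries spanned a narrow range above the other 8. Apc Eif3h averaged 87.9 ± 9.50 CPM and Apc 119 ± 2.25 (SD, n = 4), a 1.35-fold lower level (-0.43 on the log2 scale, and -0.37 without Apc Eif3h replicate 2). Apc was 1.48-fold above WT (0.57, SE 0.08, adjusted p = 0.000172). Apc Eif3h against WT gave 0.13 (adjusted p = 0.192), with 2 SE to either side spanning -0.03 to 0.29. That difference passed without Apc Eif3h replicate 2 (0.20, adjusted p = 0.0418) and with library totals as the only scaling (0.33, adjusted p = 0.0036), a scaling that moved the median of all genes to 0.171; over 16 alternatives its adjusted p was 0.0036 to 0.445.

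Zfp503, the closest relative of Zfp703 and the other NET family gene, showed the same order of groups. It averaged 31.6 CPM in Apc Eif3h, 45.8 in Apc and 13.4 in WT, fell in Apc Eif3h against Apc (-0.54, SE 0.14, adjusted p = 0.0362) and rose in Apc against WT (1.78, SE 0.14, adjusted p = 6.64e-06). It also exceeded WT in Apc Eif3h (1.24, SE 0.14, adjusted p = 2.18e-05). Of the 12 other genes of this list, which holds known partners and corepressors, 1 fell (Zfp503) and 2 rose in Apc Eif3h against Apc. Over all genes 2.78% fell and 4.27% rose there. Phb2, a prohibitin, rose (0.40, SE 0.08, adjusted p = 0.0135), as did the Groucho family corepressor Tle4 (0.40, SE 0.10, adjusted p = 0.0287), and without Apc Eif3h replicate 2 the call for Zfp503 was lost (-0.53, adjusted p = 0.0813). In Apc against WT 6 of the 12 rose, among them the deacetylase Hdac2 (0.87, SE 0.09, adjusted p = 1.59e-05), and 3 fell, Tle4 (-0.78, SE 0.10), Ncor1 (-0.43, SE 0.10) and Aes (-0.33, SE 0.10). Over all genes 27.7% rose and 24.1% fell in that comparison. An antisense gene, Gm45371, shares 459 exonic bases with Zfp703 and had 0 counts in every group. Without the strand setting of the counting, reads in the shared bases cannot be told apart.

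**Figure D3:**
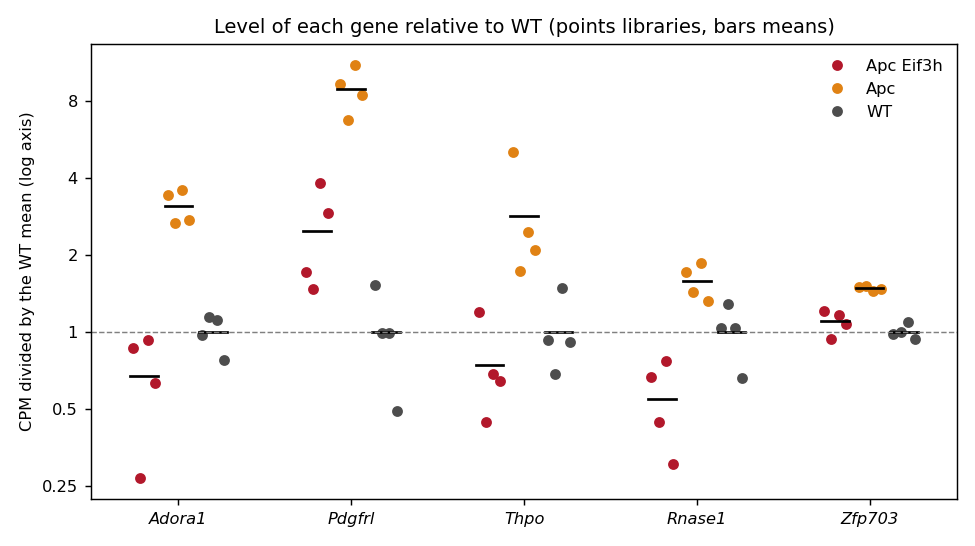
Level of each gene in every library divided by its WT mean (log axis; the dashed line is 1), for Apc Eif3h, Apc and WT. Bars are means of 4 libraries: Apc Eif3h stood at 2.48 for Pdgfrl, 1.10 for Zfp703, 0.740 for Thpo, 0.671 for Adora1 and 0.545 for Rnase1.

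The spread among Apc Eif3h libraries was wide for 4 of the genes. The coefficient of variation was 44.4% for Adora1, 43.9% for Pdgfrl, 42.7% for Thpo and 38.4% for Rnase1 in Apc Eif3h, and 10.8% for Zfp703. In Apc it was 15.2%, 20.5%, 53.2% and 15.5% for the same 4 genes and 1.89% for Zfp703. In WT it was 16.7%, 42.7%, 33.7% and 25.6% for those 4 and 6.59% for Zfp703. For Eif3h it was 35.4% in Apc Eif3h, 4.21% in Apc and 4.91% in WT.

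The level of Wnt signalling was read from a list of its target genes. All 20 on the list rose in Apc against WT, where 27.7% of all genes did. All 20 also rose in Apc Eif3h against WT (median 1.91, beside -0.0286 for all genes), where 29.8% of all genes rose. Of the 5 genes only Pdgfrl rose there, but their choice favours low values in that comparison, so the 2 sets cannot be weighed against each other. In Apc Eif3h against Apc the median was -0.26, with 15 of the 20 below 0, and 4 fell, where 2.78% of all genes did: the stem cell receptor Lgr5 (-1.19, SE 0.22, adjusted p = 0.00974), Nkd1 (-1.0, SE 0.23, adjusted p = 0.0254), Tnfrsf19 (-1.30, SE 0.28, adjusted p = 0.0181) and Smoc2 (-0.63, SE 0.08, adjusted p = 0.00171). The call for Nkd1 was lost without Apc Eif3h replicate 2 (-0.88, adjusted p = 0.0668).

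**Figure D4:**
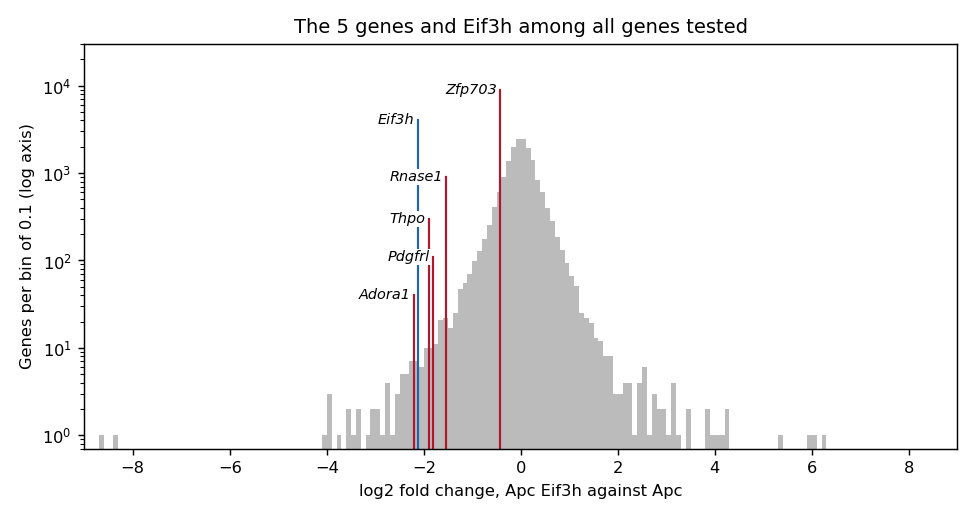
Number of genes per bin of 0.1 in log2 fold change of Apc Eif3h against Apc (log axis) for the 17394 genes tested. Red lines mark the 5 genes and a blue line Eif3h; Zfp703 at -0.43 lies inside the main body and the other 4, at -1.54 to -2.20, in the lower tail.

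Genes most like each of the 5 were found by the root-mean-square difference of log2 CPM, centred per gene, over the 12 libraries, which are 3 groups and so not independent points. These libraries include those used to choose the 5 genes, so likeness among the 5 and to other lowered genes is partly built in. The measure also grows with the size of the changes, so its values do not rank likeness of shape between genes. Predicted gene models, with Gm or Rik symbols, were left out of this search, so "nearest" holds among the other genes tested. Nearest to Adora1 were C4bp, a complement regulator (0.432 log2 units), the antisense transcript BC018473 (0.437) and Thpo itself (0.464). Reads of BC018473 and of the gene it overlaps cannot be told apart without the strand setting. C4bp averaged 1.36 CPM in Apc Eif3h, 4.30 in Apc and 2.06 in WT. Nearest to Thpo were Tifa, an adaptor of NF-kappaB signalling (0.396), the riboflavin transporter Slc52a3 (0.430) and Piwil4 (0.450). Tifa averaged 67.3 CPM in Apc Eif3h, 177 in Apc and 55.5 in WT.

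Pdgfrl was nearest to the retinol dehydrogenase Rdh1 (0.382), the Myc family gene Mycl (0.406) and the kinesin Kif12 (0.426). Mycl averaged 44.5 CPM in Apc Eif3h, 103 in Apc and 17.2 in WT, and Kif12 averaged 8.77, 18.9 and 2.92 CPM. Genes like Rnase1 included Rnase4, the nearest (0.333), and the secreted phospholipase Pla2g3 (0.341). Zfp703 was nearest to the mitochondrial isocitrate dehydrogenase Idh2 (0.078), Tns3 (0.085) and Lrp4 (0.091). Idh2 averaged 78.3 CPM in Apc Eif3h, 105 in Apc and 65.8 in WT. Among the 5 genes themselves Adora1 and Thpo differed least (0.464) and Pdgfrl and Rnase1 most (1.098), over libraries that include those of the choice.

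**Figure D5:**
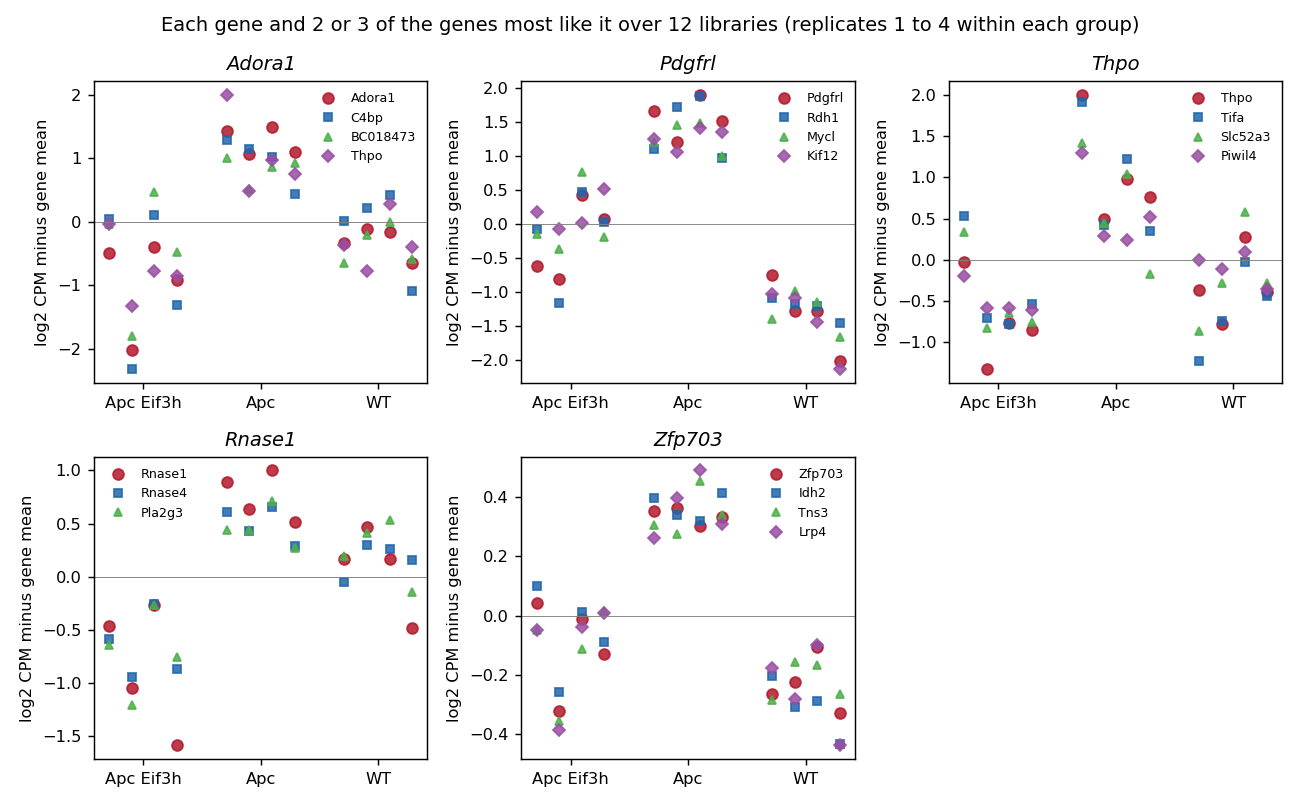
Log2 CPM minus the gene mean in the 4 Apc Eif3h, 4 Apc and 4 WT libraries for each of the 5 genes (red circles) and 2 or 3 of the genes most like it. Points run from replicate 1 to 4 within a group; root-mean-square differences were 0.078 to 0.464 log2 units.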

How the data were processed

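Whole-number counts per gene of 12 libraries, not normalized, were deposited by the authors. The submitters' processing notes list HISAT2 2.1.0, featureCounts 1.6.4, Trim Galore 0.6.4, FastQC 0.11.8 and the build GRCm38. Their settings, the annotation release, the strand and the handling of multiply matched reads: not given in the sources used here. Of 55421 identifiers 55240 matched GENCODE M21 (GRCm38), the source of symbols, coordinates and exon lengths. The other 181 held 0.00226% of counts.

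Libraries were grouped by title. In edgeR 4.0.16 (R 4.3.3) genes were kept by filterByExpr, scaled by TMM and fitted with glmQLFit (1 mean per group, all 12 libraries), with glmQLFTest and Benjamini-Hochberg adjustment over 17394 genes; calls had an adjusted p below 0.05. SE is the absolute log2 fold change over the square root of F. Log2 CPM used a prior count of 2. Replicate pairs differed beyond counting error (chi-square per gene 16.5 to 47.8). The scripts were tested on simulated data. In Apc Eif3h against Apc they recovered 60% of simulated log2 changes of size 1 and 94% of size 2, so genes that did not pass may still differ. Alternatives were other scalings and filters, DESeq2 1.42.0, fits of 2 groups, males, a replicate block and leaving out each library. Named genes are the 5 members, Eif3h, overlapping and adjacent genes, 3 nearest profiles each, and called members of their pathway lists, with further list genes named after their values were seen; a few genes under this rule are not reported here. Members and lists were chosen with earlier results of these data known.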

Additional observations from a re-analysis of the deposited data

How the results depend on the processing

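The log2 fold changes of the 5 genes kept their direction in all 16 alternatives of each comparison. The choice of the genes set that direction in Apc Eif3h against Apc, so there it gives no support. The other comparisons share libraries with the choice. In Apc Eif3h against Apc the log2 fold changes stayed within 1 SD of the Apc Eif3h libraries, at -2.37 to -1.95 for Adora1, -2.04 to -1.64 for Pdgfrl, -2.19 to -1.51 for Thpo, -1.73 to -1.33 for Rnase1 and -0.48 to -0.37 for Zfp703. Calls moved for 3 results. Rnase1 in Apc against WT lost its call with no count filter (0.67, adjusted p = 0.0544), among males (0.46) and without 7 of 8 single libraries (0.50 to 0.79 over the 8). Pdgfrl in Apc Eif3h against WT lost it among males (1.09). Zfp703 in Apc Eif3h against WT gained one when scaled by library totals (0.33) or without Apc Eif3h replicate 2 (0.08 to 0.20 over the 8).

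Counts over all genes moved more. In Apc Eif3h against Apc, 743 genes higher became 485 with library totals only, 400 among males and 242 to 1152 with 1 library left out (242 without Apc replicate 3, 1152 without Apc Eif3h replicate 3). The 483 lower became 306 with no count filter, 259 among males and 164 to 615 (the same 2 libraries). Any library left out except Apc replicate 1 moved the higher count by over 1.5 times, and any except Apc Eif3h replicate 3 the lower count. Library totals left 2393 lower in Apc and 3175 lower in Apc Eif3h against WT. They also moved the share of higher genes among calls to 49.8%, against 60.6% with TMM in Apc Eif3h against Apc, to 74.0% against 53.5% in Apc against WT, and to 67.5% against 51.5% in Apc Eif3h against WT, with medians of all genes at -0.0329, 0.221 and 0.171. With the replicate block, 594 genes were higher and 399 lower in Apc Eif3h against Apc, and no call of the 5 genes changed. Deviations of same-numbered libraries correlated at -0.142 to 0.236, which cannot decide whether the numbers pair samples, and no label states a pairing. Counts of 3 to 41 per library limit Adora1, Pdgfrl and Thpo in WT.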
